A study of Mus musculus with 8 samples.

Results

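NMDA receptors are glutamate-gated, calcium-permeable channels, and their 7 subunit genes, Grin1, Grin2a, Grin2b, Grin2c, Grin2d, Grin3a and Grin3b, were followed in nuclear RNA of sorted cortical GABAergic neurons. The 7 were taken by gene symbol, not by measured values, from 55450 genes in the count tables. Nuclei carrying a Cre-dependent fluorescent protein were sorted from single cortices of juvenile mice, and the labels give neither the age in days nor the name of the Cre driver. Control mice were Thra+/+, and mutant mice were Thra+/AMI, which adds a Thra mutation encoding a dominant-negative thyroid hormone receptor that Cre restricts to GABAergic neurons. Both groups carried the Cre driver and the reporter, as the design text reads. The series lists 4 control and 4 mutant samples. The tables of mutants 7 and 10 were alike in all 55220 gene symbols compared, of which 21975 had a count. They thus differed by less than sampling noise, and this repeat was entered once, as mutant 7. The comparison is thus between 4 controls and 3 mutants.

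The channel is a tetramer. Grin1 encodes GluN1, the subunit that every NMDA receptor needs and that binds the co-agonists glycine and D-serine. Grin2a to Grin2d encode the glutamate-binding GluN2 subunits, which set how fast the channel closes and how strongly magnesium blocks it. Grin3a and Grin3b encode the glycine-binding GluN3 subunits, which lower calcium flow. In the rodent cortex GluN2B dominates around birth and GluN2A is added during postnatal maturation, a change known as the subunit switch. GluN3A is likewise known as a subunit of juvenile synapses, and GluN2D as one of inhibitory neurons.

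The GluN2 genes are paralogs, so the stretches of coding sequence that 2 subunits share without a mismatch bear on whether their reads can be told apart. They were sought in the GENCODE M21 transcripts (GRCm38). Over all 21 pairs of subunits the longest shared run of the longest coding sequences was 12 to 34 bases, the longest between Grin2b and Grin2c. Every run was shorter than the 75 bases of 1 read end.

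Of all genes, 1549 of 16448 tested genes passed an adjusted p of 0.05 in edgeR's quasi-likelihood test, which is 9.42% (4.78% lower and 4.63% higher in mutants). Of the 7 subunits, all of which passed the filter on low counts, 2 were called, Grin2a and Grin2c, both lower. Total counts were 10747169 to 13804734 per library. The targeted gene Thra, whose count adds both alleles, was at 114 ± 9.35 CPM (read count relative to the library total after TMM scaling; SD, n = 4) in controls and 87.5 ± 9.39 CPM (n = 3) in mutants. Its log2 fold change was -0.39 (edgeR adjusted p 0.0543), and it was called by DESeq2 (-0.39, adjusted p 0.0284), by limma-voom (-0.43, adjusted p 0.00359), with an offset from genomic length (-0.40, adjusted p 0.00956), with 1 surrogate variable (-0.38, adjusted p 0.00498) and without control 1 (-0.41, adjusted p 0.0275), control 4 (-0.43, adjusted p 0.0149) or both (-0.48, adjusted p 0.000755). The sorted class was checked with 9 GABAergic markers that had a symbol of their own: their summed level was 3711 to 5226 CPM in controls and 3623 to 4517 CPM in mutants, and 0 of 8 tested were called by edgeR or DESeq2. Lhx6, chosen after its value was seen, was the 1 with an unadjusted p under 0.05 in edgeR and was called by limma-voom. Dlx1 was listed at 0 in all 7 libraries. Control 1 had fewer and control 4 more reads in long genes: in 595 tested genes of 300 kb or longer, the median log2 deviation from the mean of all libraries was -0.51 in control 1 and 0.54 in control 4, and -0.11 to 0.11 in the other 5. Control 4 and mutant 8 held 4 and 3 reads of 4 Y-linked genes, against 5094 to 6644 in the other 5 libraries.

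Grin2a, the subunit that is added as synapses mature, was lower in the mutants. This gene (ENSMUSG00000059003.12, GRCm38 chromosome 16, 9567898 to 9995560, minus strand) held 6985, 10508, 9139 and 14393 reads in controls 1 to 4 and 6260, 3940 and 4521 reads in mutants 6, 7 and 8. Scaled, these were 554, 794, 696 and 1161 CPM in controls and 490, 362 and 354 CPM in mutants. All 3 mutants lay below the lowest control, and control 4 lay well above the other controls. The mean fell from 801 ± 259 CPM (SD, n = 4) to 402 ± 76.4 CPM (SD, n = 3). On the log2 scale this difference was -1.0 (SE 0.24, edgeR adjusted p 0.0205), or 0.501 of the control level. The groups did not overlap in 22% of all tested genes, 10.7% lower and 11.2% higher, and among the subunits in 3 of 7.

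The call for Grin2a was lost in 3 of 7 fits without 1 library. These left out control 2 (log2 fold change -1.0, adjusted p 0.0580), mutant 7 (-0.92, adjusted p 0.126) or mutant 8 (-0.90, adjusted p 0.120). Over all genes these 3 fits called 1046, 734 and 816, against 1549 with all 7 libraries. Calls over all genes also fell without control 3 (1016) or mutant 6 (766), where Grin2a was still called (adjusted p 0.0386 and 0.0439). Without both control 4 and mutant 8 the log2 fold change of Grin2a was -0.68 (adjusted p 0.0458). Grin2a spans 427.7 kb, so it follows the gene-length difference between the controls: the trend fitted over all genes lay at -0.49 for control 1 and 0.50 for control 4 at its length. With that trend taken out as an offset, the log2 fold change of Grin2a was -0.99 with a smaller SE of 0.10 (adjusted p 2.63e-06). Between genotypes, genes of 300 kb or longer had a median log2 fold change of 0.00, and 3.87% of these 595 genes had a fold change below that of Grin2a.

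Grin2b, which encodes the subunit of early postnatal receptors, did not pass the test. It lies on chromosome 6 (ENSMUSG00000030209.14, 135713233 to 136173511, minus strand) and spans 460.3 kb, a length close to that of Grin2a. Its levels were 591, 811, 777 and 1100 CPM in controls 1 to 4 and 830, 751 and 716 CPM in mutants 6, 7 and 8. The mutants lay inside the range of the controls. The log2 fold change was -0.10 (SE 0.20, edgeR adjusted p 0.840), and its sign turned without control 4 (0.08, SE 0.15).

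**Figure D1:**
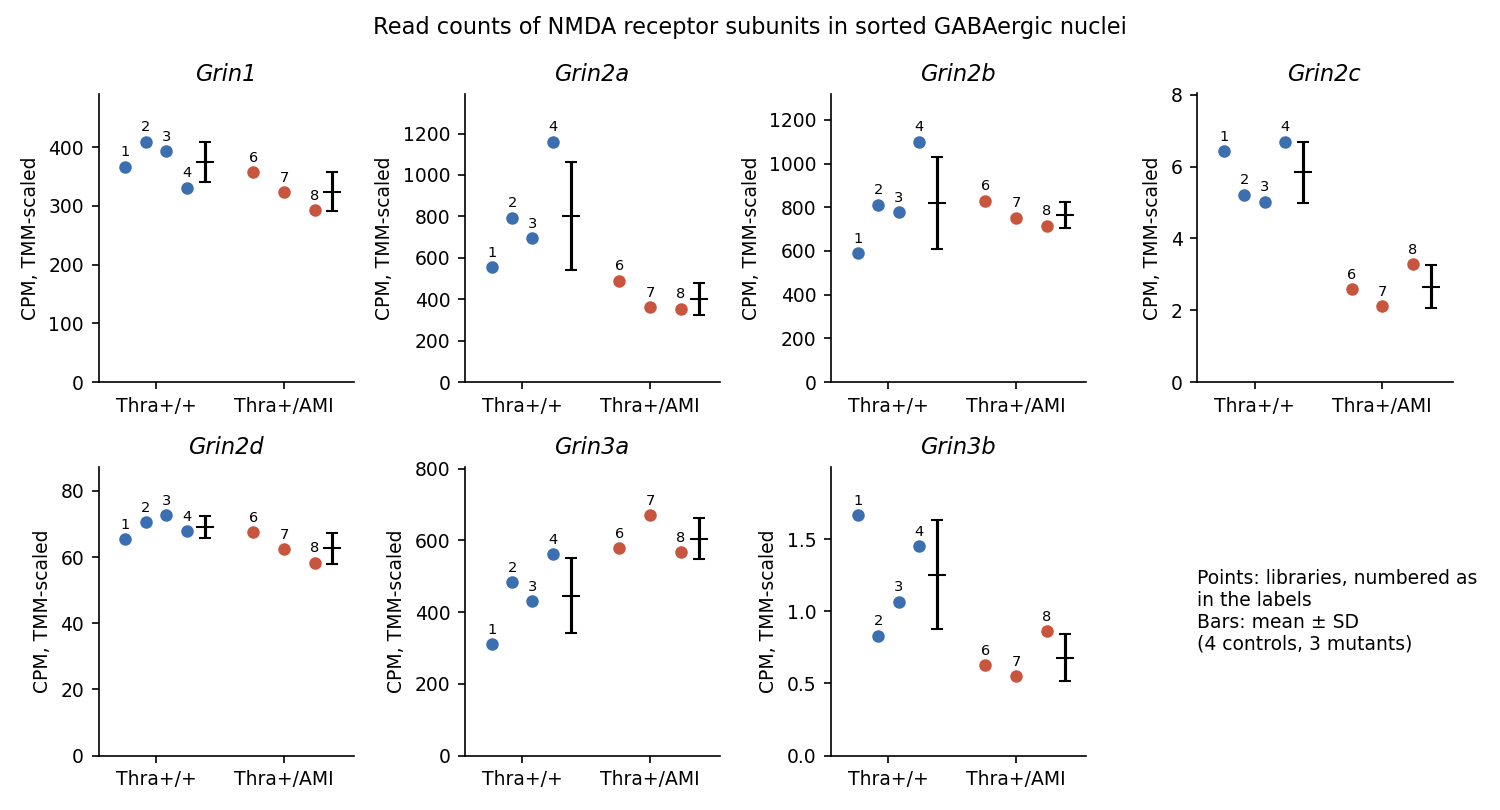
Levels of the 7 subunit genes in each library, in CPM scaled by TMM (vertical axes start at 0), for Thra+/+ controls 1 to 4 and Thra+/AMI mutants 6 to 8; points are libraries and bars are mean ± SD. Grin2a and Grin2c are lower in all 3 mutants than in any control, Grin3a is higher, and the groups overlap in the other 4 genes.

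The subunit switch is usually read as the balance of Grin2a to Grin2b, and this ratio was compared within each library, where library scaling cancels. For each read of Grin2b, controls 1 to 4 had 0.938, 0.979, 0.895 and 1.06 reads of Grin2a. Mutants 6, 7 and 8 had 0.590, 0.481 and 0.494. The controls lay close to each other, although controls 1 and 4 differed widely in both genes, and no mutant came near a control. The mean log2 ratio was -0.05 ± 0.10 (SD, n = 4) in controls and -0.94 ± 0.16 (SD, n = 3) in mutants, a difference of -0.89 or 0.538 of the control ratio. The exact permutation test over libraries gave a two-sided p of 0.0571, the smallest that 4 against 3 libraries can give, and 0.133 when adjusted over the 7 ratios examined. This ratio is also the test of whether Grin2a and Grin2b differ in their fold change. Without any 1 library the difference was -0.98 to -0.84.

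**Figure D2:**
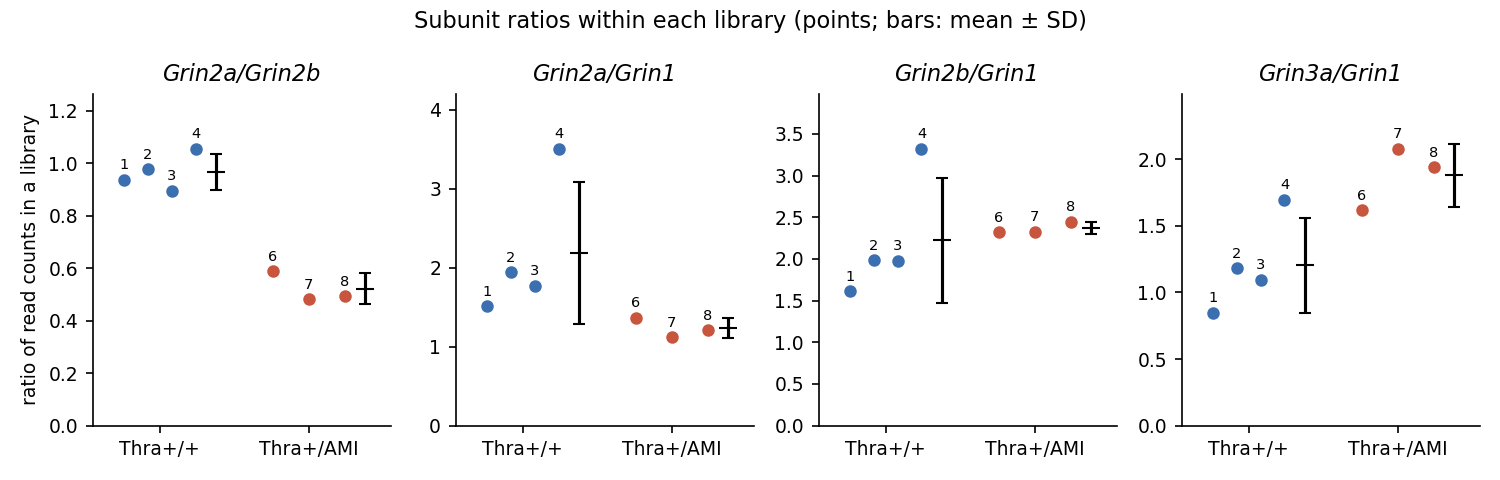
Ratio of read counts of 2 subunits within each library (vertical axes start at 0) for Thra+/+ controls 1 to 4 and Thra+/AMI mutants 6 to 8; points are libraries and bars are mean ± SD of the ratios. Grin2a to Grin2b is 0.895 to 1.06 in controls and 0.481 to 0.590 in mutants, while Grin2b to Grin1 overlaps between the groups. In ratios to Grin1, a shorter gene, the gene-length difference of controls 1 and 4 does not cancel.

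Grin1, the obligatory subunit, did not pass the test. This gene on chromosome 2 (ENSMUSG00000026959.13, 25291181 to 25319187, minus strand) was at 367, 409, 393 and 331 CPM in controls 1 to 4 and at 358, 323 and 292 CPM in mutants 6, 7 and 8. The groups overlapped, with control 4 below mutant 6. The log2 fold change was -0.21 (SE 0.13, edgeR adjusted p 0.407). It passed with limma-voom and sample weights (-0.29, adjusted p 0.0484) and without controls 1 and 4 (-0.31, adjusted p 0.0328). The antisense gene Grin1os overlaps 13.47% of the exonic bases of Grin1 and was listed at 0 in all 7 libraries, and whether the counting used strand is not given in the sources used here.

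Grin2c was the other subunit called lower, at a low level. GluN2C is best known from cerebellar granule cells and astrocytes. The gene lies on chromosome 11 (ENSMUSG00000020734.13, 115249169 to 115267243, minus strand) and had 81, 69, 66 and 83 reads in controls 1 to 4 and 33, 23 and 42 reads in mutants 6, 7 and 8. These counts correspond to 6.42, 5.21, 5.02 and 6.69 CPM in controls and 2.58, 2.11 and 3.28 CPM in mutants. Every mutant was below every control. The log2 fold change was -1.13 (SE 0.25, edgeR adjusted p 0.0139), or 0.458 of the control level, and the call was lost without mutant 6 (-1.10, adjusted p 0.0675) or mutant 7 (-0.99, adjusted p 0.0797).

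Of the astrocyte markers 1 was called lower in the mutants, and the part of astrocyte marker levels in the Grin2c result was not tested. The summed level of 7 astrocyte markers was 267 to 337.5 CPM in controls and 207 to 228 CPM in mutants. Of 6 tested markers 5 had a fold change below 0 and 1 was called, Slc4a4, a bicarbonate transporter, with a log2 fold change of -0.54 (edgeR adjusted p 0.0366). Slc4a4 alone made up 168 to 248 CPM of the sum in controls and 133 to 157 CPM in mutants. Without it the other 6 markers summed to 58.8 to 109 CPM in controls and 64.8 to 74.0 CPM in mutants, so the groups overlapped. Gfap, a defining astrocyte gene, was listed at 0 in all 7 libraries, as was Dlx1 among the GABAergic markers. This 0 is therefore not read as a lack of astrocyte reads. Aqp4, the astrocyte water channel, was at 4.68 to 8.09 CPM in controls and 3.36 to 5.97 CPM in mutants.

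Grin2c was also the only called subunit with a promoter window in the RefSeq table used (GRCm38.p6), which held windows for 4 subunits: Grin1, Grin2c, Grin2d and Grin3b. The 250 bases before each start were searched on both strands for AGGTCA, the hexamer to which thyroid hormone receptors bind as part of their response elements. The window of Grin2c (chr11:115267244-115267493, minus strand) held 1 match, in capitals in the sequence below, 248 bases before the start.
Grin2c: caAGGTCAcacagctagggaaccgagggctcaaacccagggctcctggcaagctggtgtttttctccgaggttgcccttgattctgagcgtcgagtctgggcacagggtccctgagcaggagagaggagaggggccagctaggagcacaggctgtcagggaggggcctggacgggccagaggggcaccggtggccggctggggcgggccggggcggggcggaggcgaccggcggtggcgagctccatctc
The windows of Grin1, Grin2d and Grin3b held 0 matches. Of all 32851 windows of this length, 14.0% held at least 1 match, and a match is a description of the letters only.

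Grin2d, a GluN2 gene of inhibitory neurons, varied least of the 7. It lies on chromosome 7 (ENSMUSG00000002771.12, 45831883 to 45878378, minus strand). Its levels were 65.4, 70.6, 72.7 and 67.8 CPM in controls 1 to 4 and 67.6, 62.3 and 58.3 CPM in mutants 6, 7 and 8. Mutant 6 lay within the controls and the other mutants below them. The log2 fold change was -0.14 (SE 0.10, edgeR adjusted p 0.485). Kdelr1 and 2 further annotated genes overlap Grin2d, and 9.66% of its exonic bases are shared.

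Grin3a, the GluN3 gene of juvenile neurons, went the other way. On chromosome 4 (ENSMUSG00000039579.15, 49661611 to 49845744, minus strand), it was at 311, 484, 430 and 562 CPM in controls 1 to 4 and 578, 671 and 567 CPM in mutants 6, 7 and 8. The groups did not overlap, and control 4 lay just below mutant 8. The log2 fold change was 0.44 (SE 0.19), which did not pass over all genes (edgeR adjusted p 0.186). It did pass with the offset from genomic length (0.44, SE 0.09, adjusted p 0.00360), with 1 surrogate variable (0.42, adjusted p 0.00945), with limma-voom and sample weights (0.45, adjusted p 0.0139) and without controls 1 and 4 (0.40, adjusted p 0.00804) or control 4 alone (0.57, adjusted p 0.0220). Relative to Grin1 in the same library, Grin3a had 0.849, 1.18, 1.09 and 1.70 reads per read in controls 1 to 4. Mutants 6, 7 and 8 had 1.62, 2.08 and 1.94. That is a log2 difference of 0.68, with an overlap between control 4 and mutant 6 (exact permutation test, two-sided, p = 0.114, 0.2 adjusted over the 7 ratios). At the length of Grin3a the trend over all genes lay at -0.34 for control 1 and 0.35 for control 4. At the length of Grin1 it lay at 0.0 in both. The gene-length difference between these controls therefore does not cancel in this ratio.

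Grin3b, whose subunit is best known from motor neurons, rested on 6 to 21 reads per library. This gene on chromosome 10 (ENSMUSG00000035745.9, 79970715 to 79977190, plus strand) was at 0.831 to 1.67 CPM in controls and 0.551 to 0.860 CPM in mutants. The log2 fold change was -0.86 (SE 0.42, edgeR adjusted p 0.248). The groups overlapped, and the gene did not pass the test. Of its exonic bases, 32.13% are shared with Tmem259 on the opposite strand.

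**Figure D3:**
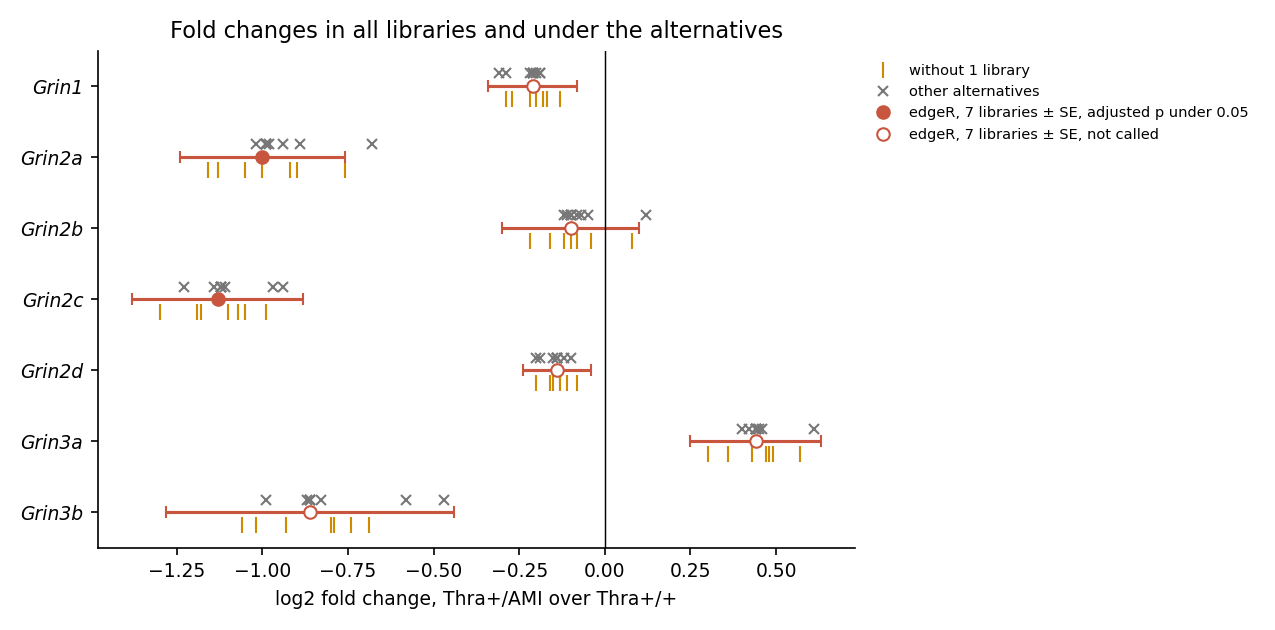
Log2 fold change of Thra+/AMI over Thra+/+ for each subunit (horizontal axis); circles with SE bars are edgeR's values in all 7 libraries, filled where the adjusted p is under 0.05, ticks leave out 1 library each and crosses are the other alternatives. Grin2a and Grin2c stay below 0 and Grin3a above 0 in every setting drawn, and Grin2b crosses 0.

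Levels of different genes were compared as CPM per kilobase of merged exons, since reads grow with length. Whether reads in introns were counted is not given in the sources used here. If they were, levels per exonic length would be raised in genes of long span. Grin2a, Grin2b and Grin3a span 427.7, 460.3 and 184.1 kb, against 28.0 kb for Grin1 and 46.5 kb for Grin2d. The order of the genes and their shares are subject to this limit. In controls Grin2a (44.7 ± 14.5, SD, n = 4), Grin1 (38.7 ± 3.51), Grin3a (36.4 ± 8.57) and Grin2b (33.0 ± 8.48) formed a leading group of 4 whose ranges overlapped, so that their order is not distinguished. Grin2d (10.4 ± 0.483), Grin2c (1.16 ± 0.167) and Grin3b (0.380 ± 0.114) followed without overlap between neighbours. In mutants Grin3a led (49.3 ± 4.63, SD, n = 3), above the range of Grin1 (33.4 ± 3.37), which overlapped that of Grin2b (30.8 ± 2.36). Grin2a stood below both in the mutants (22.4 ± 4.26), with a highest value of 27.3 against a lowest of 28.8 for Grin2b. Measured over the longest transcript instead, Grin1 had the highest mean in controls (87.7), because its merged exons (9700 bases) are much longer than its longest transcript (4276 bases). On that length the range of Grin1 in controls (77.5 to 95.7) lay above that of Grin3a (41.5 to 75.0) and overlapped that of Grin2a (37.9 to 79.3). The separations seen in mutants did not hold on that length: Grin3a (75.7 to 89.5) overlapped Grin1 (68.4 to 83.7), and Grin2a (24.2 to 33.5) overlapped Grin2b (29.8 to 34.5). The sum of the 7 subunits per kilobase was 129 to 201 in controls and 135 to 156 in mutants, so the totals overlapped.

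Read as shares of that sum, the ranges of controls and mutants did not overlap for 3 genes, and no test was run on the shares. By CPM, the groups did not overlap in 22% of all tested genes. Grin2a held 23.9% to 32.2% of the summed level in controls and 13.6% to 17.6% in mutants. Grin3a held 19.6% to 23.1% in controls and 30.3% to 36.9% in mutants. Grin2c held 0.607% to 0.986% and 0.283% to 0.485%. Shares of Grin1, Grin2b, Grin2d and Grin3b overlapped, with Grin2b at 18.4% to 22.0% in controls and 20.4% to 21.5% in mutants. Shares add to a fixed total, so a lower share of Grin2a raises the others.

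**Figure D4:**
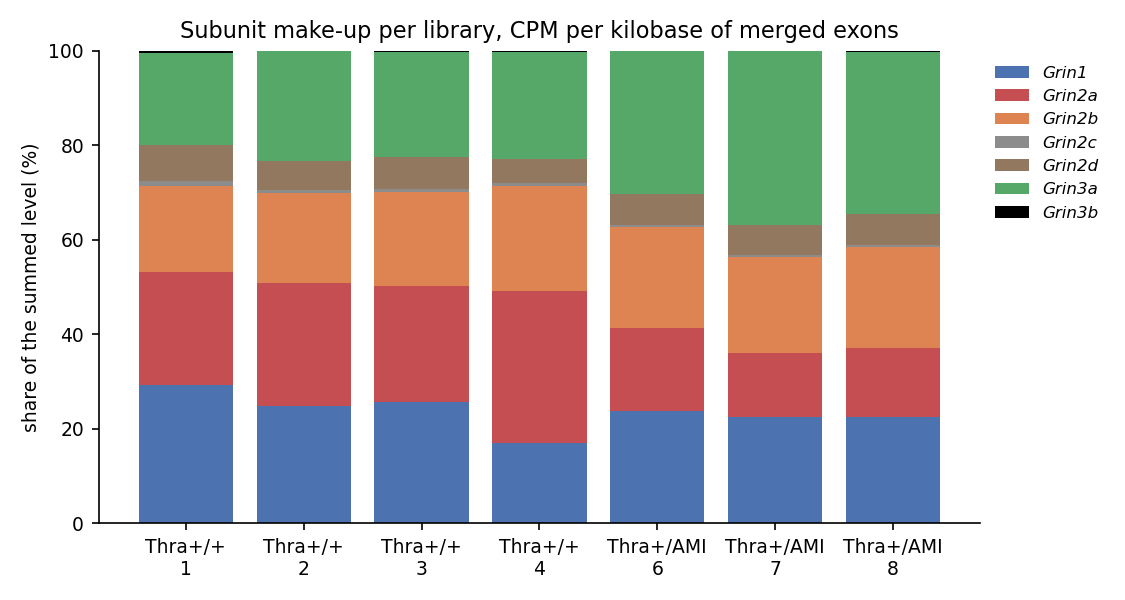
Share of each subunit in the summed level of the 7 genes (vertical axis, percent of CPM per kilobase of merged exons) in each library, controls 1 to 4 on the left and mutants 6 to 8 on the right. The Grin2a block is 23.9% to 32.2% high in controls and 13.6% to 17.6% in mutants, and the Grin3a block is 19.6% to 23.1% and 30.3% to 36.9%.

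Markers of 4 GABAergic classes were compared between the groups. Their summed levels did not overlap for the parvalbumin and somatostatin classes, and overlapped for the VIP and LAMP5 classes. In sorted bulk nuclei, fewer cells of a class and less RNA per cell cannot be told apart. Of 4 parvalbumin class markers 3 were called lower, Pvalb, Syt2 and Kcnc1, while Tac1 averaged 105 CPM in both groups (edgeR adjusted p 0.981). The sum of the 4 was 673 to 851.5 CPM in controls and 291 to 345 CPM in mutants. Kcnc1 alone made up 457 to 648 CPM of it in controls and 176 to 230 CPM in mutants. Of 4 somatostatin class markers 3 were called higher, Sst, Calb1 and Crhbp, with a sum of 435.5 to 545 CPM in controls and 825.5 to 1041 CPM in mutants. Of 4 VIP class markers 2 were called higher, Cck (0.71) and Tac2 (1.05), while Vip itself had -0.27 (edgeR adjusted p 0.469), and the sum was 194 to 366 CPM in controls and 273 to 286 CPM in mutants. Of 4 LAMP5 class markers 1 was called higher, Sv2c (0.43), while Lamp5 had -0.53 (edgeR adjusted p 0.107), and the sum was 735 to 944.5 CPM in controls and 929.9 to 1199 CPM in mutants. Glutamatergic markers, listed to look for cells outside the sort, summed to 258 to 393 CPM in controls and 237 to 298 CPM in mutants. Cux2 alone made up 134 to 202 CPM of this sum in controls and 138 to 158 CPM in mutants. Of these markers 0 of 10 were called (0 by edgeR, DESeq2 or limma-voom, and 0 at an unadjusted p under 0.05). The part of these marker levels in the Grin2a and Grin3a values was not tested.

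The other ionotropic glutamate receptor genes gave no call in edgeR. Among 4 AMPA receptor subunits, which carry the fast glutamate current, the median was -0.13 on the log2 scale (-0.25 to 0.72). It was 0.32 among 5 kainate receptor subunits (0.01 to 0.75) and -0.15 between 2 delta receptor subunits. The NMDA receptor subunits had a median of -0.21 over 7 genes, and all tested genes a median of -0.01. Grik1, the kainate subunit GluK1, was at 609 to 1202 CPM in controls and 1472 to 1735 CPM in mutants, and its log2 fold change of 0.75 came closest to the threshold (edgeR adjusted p 0.0552). Of these 3 families 0 of 11 genes were called by edgeR, and 3 had an unadjusted p under 0.05 (Gria1, Grik1 and Grik3). DESeq2 called 2 and limma-voom 3, and all of these were higher in mutants. Of 16448 tested genes, edgeR called 1549 (9.42%), and 3709 had an unadjusted p under 0.05 in edgeR. DESeq2 called 1989 of all tested genes and limma-voom 3147. The difference between the families and the NMDA receptor subunits was not tested.

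Genes that hold, move or co-activate NMDA receptors, or that time their switch, were then counted in 4 lists of general knowledge. Of 16 tested postsynaptic scaffold genes 1 was called, Begain, a partner of PSD-95, and it was higher. Its level was 56.9 to 67.4 CPM in controls and 78.1 to 81.2 CPM in mutants (log2 fold change 0.37, SE 0.10, edgeR adjusted p 0.0397), and the call needed control 2, control 3 and each mutant (0.35 to 0.42 when 1 of these was left out, adjusted p 0.0571 to 0.155). It was also lost with no filter on low counts (0.37, adjusted p 0.0697) and without control 4 and mutant 8 (0.32, adjusted p 0.137). The other 15, among them the PSD-95 gene Dlg4 (0.20), had log2 fold changes from -0.28 to 0.62.

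Of 11 trafficking genes 1 was called, Lin7b, whose protein belongs to the CASK complex that carries NMDA receptors along dendrites. It was at 85.9 to 142 CPM in controls and 69.0 to 80.3 CPM in mutants (log2 fold change -0.64, SE 0.16, edgeR adjusted p 0.0226), and leaving out control 2, control 3 or 1 mutant ended the call (-0.68 to -0.57, adjusted p 0.0568 to 0.137). Neto1, an auxiliary protein of NMDA and kainate receptors, had 0.52 (adjusted p 0.0504). Of 9 tested genes of co-agonist supply and clearance 1 was called, Gldc, the glycine decarboxylase of the glycine cleavage system. It fell from 17.1 ± 1.87 CPM (SD, n = 4) to 7.86 ± 0.661 CPM (SD, n = 3), which is -1.12 on the log2 scale (SE 0.17, edgeR adjusted p 0.00129). Gldc is known in astrocytes as well, and the astrocyte marker values given for Grin2c stand beside it too. The serine racemase gene Srr (-0.22) was among the 8 not called, and the glycine transporter gene Slc6a5 was listed at 0 in all libraries.

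Of 10 genes linked to the timing of the subunit switch, among them Rest (0.39), Ezh2 (0.06), Reln (0.43), Lrp8 (0.35) and Grm5 (0.14), 0 were called by edgeR. Their median log2 fold change was 0.16. Reln, which is also in the LAMP5 class list, Lrp8 and Vldlr had groups that did not overlap, all higher in mutants. Over all tested genes, 22% had groups that did not overlap, 11.2% higher in mutants. These 3 list genes had an unadjusted p under 0.05 in edgeR, as did 3709 of all 16448 tested genes. All 3 were called by limma-voom, and Lrp8 alone by DESeq2. Over the 4 lists, 3 of 46 tested genes were called, 2 lower and 1 higher, beside the 9.42% of all tested genes. DESeq2 called 6 of the 46, beside 12.1% of all tested genes. With limma-voom 14 were called, 4 of them lower, beside 19.1% of all tested genes.

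**Figure D5:**
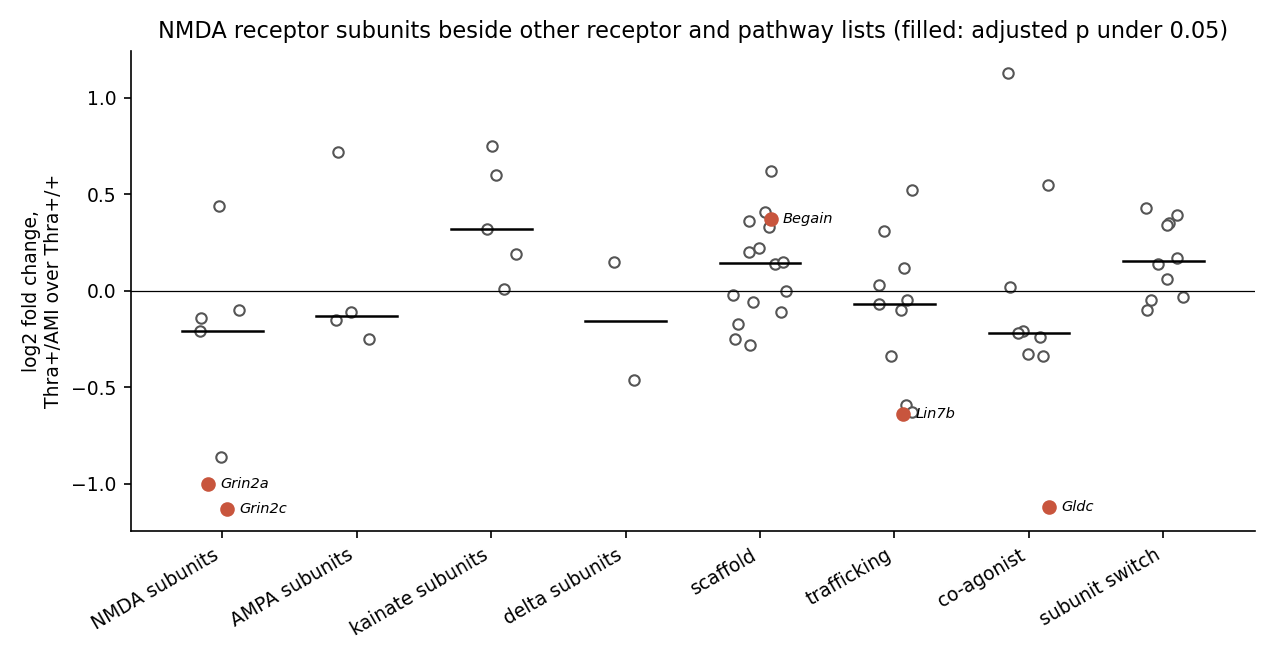
Log2 fold change of Thra+/AMI over Thra+/+ (vertical axis) for tested genes of the NMDA receptor subunits, 3 other receptor families and 4 pathway lists; filled points have an adjusted p under 0.05 and lines are medians. Calls by edgeR are 2 of 7 among the NMDA receptor subunits, 0 of 11 among the other families and 3 of 46 in the pathway lists. Of all tested genes, 9.42% are called by edgeR.

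The genes whose levels followed Grin2a most closely over the 7 libraries were found by the root mean square difference of log2 CPM after each gene's mean was removed, among 11796 genes averaging 5 CPM or more. They were Runx2, a transcription factor (0.0619), Gabrg3, a GABA-A receptor subunit (0.120), and Inpp4b, a phosphoinositide phosphatase (0.125), where the median gene had 0.604. These 3 genes span 318.8, 670.7 and 785.4 kb, so they share with Grin2a the great length that sets control 1 and control 4 apart. Their log2 fold changes were -0.97, -0.86 and -0.95. The genes closest to Grin2c were Steap2, a metalloreductase (0.0823), Boc, a hedgehog co-receptor (0.0877), and Klf9, a zinc-finger transcription factor (0.0890), with log2 fold changes of -1.09, -1.13 and -1.17. All 6 genes share the libraries and the genotype contrast with the subunits, so the closeness is a description.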

How the data were processed

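Nuclear RNA of sorted nuclei was measured by SMART-Seq v4 and Nextera XT libraries with paired reads, per the labels' protocols. The authors deposited read counts per gene, not normalized. Bowtie2 2.5.3 and GRCm38 are named in the submitters' processing notes. The counting program, its strand setting and whether it counted reads in introns are not given in the sources used here. All 55450 identifiers matched GENCODE M21. Reads were amplified and carry no molecular identifiers. Each library is 1 cortex, so p-values measure the spread between libraries, in which animal and preparation cannot be told apart.

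Counts were fitted in R 4.3.3 with edgeR 4.0.16 (filterByExpr, least count 10, total 15; TMM; glmQLFit robust; glmQLFTest, group only), two-sided, with Benjamini-Hochberg adjustment over 16448 genes. The planned 4 mutants became 3, since 1 table was a repeat. SE is the fold change divided by the root of F. CPM uses TMM-scaled totals, and means are given with SD. Ratios (prior count 0.5) were tested by exact permutation in scipy 1.17.1. On counts simulated for this comparison (16173 genes), the fit recovered 61 of 96 genes changed by 1 on the log2 scale. Of genes changed by 0.5 it recovered 11 of 98, and it made 7 false calls. Genes were simulated independently, without the gene-length difference between libraries and with fewer changed genes than were called in the real data. Recovery in the real data may therefore differ. Alternatives were RLE scaling, DESeq2 1.42.0, limma 3.58.1 voom, filters, a length offset, 1 surrogate variable (sva 3.50.0) and left-out libraries.

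Named genes were the 7 subunits, Thra, at most 4 called genes per pathway list and the 3 genes closest to each called subunit; genes not called that are named in these lists and marker genes were chosen after their values were seen. The members and lists were chosen with earlier results of these data known. A list of signalling genes, and some sequences, are not reported here.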

Additional observations from a re-analysis of the deposited data

How the results depend on the processing

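Low counts of Grin2c and Grin3b and the number of mutants, 3, limit the precision. No paired analysis was run because the labels give no pairing of controls with mutants. Beside the fit in all 7 libraries there were 9 alternatives and 7 fits without 1 library.

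The fold changes of Grin2d and Grin3b kept their direction and stayed uncalled in each setting that could be fitted, and Grin3b did not pass the stricter filter. Grin2a (-1.02 to -0.68) and Grin2c (-1.23 to -0.94) were called in all 9 alternatives; without 1 library they ran from -1.16 to -0.76 and from -1.30 to -0.99. Grin1 was called with limma-voom (-0.29) and without controls 1 and 4 (-0.31), and ran from -0.29 to -0.13 without 1 library. Grin3a was called with the length offset (0.44), 1 surrogate variable (0.42), limma-voom (0.45) and without controls 1 and 4 (0.40), and ran from 0.30 to 0.57 without 1 library. Grin2b turned sign without control 4 (0.08) and, in an alternative chosen after seeing the data, without control 4 and mutant 8 (0.12); without 1 library it ran from -0.22 to 0.08. The cause was not tested.

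The subunits called numbered 4 with limma-voom and 4 without controls 1 and 4, and 0 to 3 without 1 library (0 without mutant 7; 1 without control 2, mutant 6 or mutant 8). All genes called numbered 2753 with the length offset, 3379 with 1 surrogate variable, 3147 with limma-voom and 2778 without controls 1 and 4, and 734 to 2347 without 1 library: 1016 without control 3, 2347 without control 4, and 766, 734 and 816 without mutants 6, 7 and 8. The 7 ratios within a library kept their direction with a prior count of 5 and without any 1 library. Over the longest transcript the mean level per kilobase in controls was 87.7 for Grin1, 12.7 for Grin2d and 59.6 for Grin3a, because that length is shorter than the merged exons.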
